A study of Mus musculus with 6 samples.

Results

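Genes that build ribosomes were examined in mouse blood stem cells of a chronic myeloid leukaemia (CML) model and in normal cells: 32 genes for nucleolar proteins, ribosomal RNA (rRNA) processing factors, RNA polymerase I subunits and growth enzymes that the transcription factor MYC drives. They were chosen by a list of gene symbols, with no threshold on their values but with earlier results of these data known. All 32 were among the 29872 symbols of the deposited table and had enough counts to be tested. The 6 libraries came from untreated bone marrow cells of C57BL/6 background, expanded ex vivo and sorted as Lin-Sca1+cKit+CD150+: 3 libraries were labelled CML and 3 were labelled WT (wild type). They are called CML 1 to CML 3 and WT 1 to WT 3 after their replicate numbers. The labels name no leukaemic transgene, promoter or age. They also do not say whether each library had its own animal or culture, so p-values measure only the spread between these libraries, and that spread may be technical.

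The nucleolus is the nuclear body in which RNA polymerase I transcribes ribosomal DNA into a long precursor RNA. Small nucleolar ribonucleoproteins (snoRNPs) then modify this precursor, and assembly factors cut and fold it into the small (40S) and large (60S) ribosomal subunits. Many of these factors are classic transcriptional targets of MYC and its paralogue MYCN, and growing and dividing blood progenitors make much use of them.

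Of the 32 genes, 16 were lower in CML and 0 were higher (edgeR quasi-likelihood test, adjusted p under 0.05), whereas 7.20% of all 16221 tested genes were lower and 10.2% were higher. The changes were moderate: the genes that fell had log2 fold changes (log2FC, CML minus WT) from -0.85 to -0.40, so that levels in CML were between 55.7% and 76.0% of those in WT. The median over all 32 genes was -0.39, beside -0.0043 over all tested genes. Of the 32 values 31 were below 0, against 50.4% of those of all tested genes. Each CML library lay below each WT library for 22 of the 32 genes, a separation that held for 16.5% of all tested genes in that direction, and for 0 of the 32 in the other direction (18.5% of all tested genes). Dkc1 and Gar1, both for proteins of H/ACA particles, had the lowest fold changes of the 32, while Bop1, Nop56, Pes1, Rrp9 and Mrto4 had values within 0.09 of 0. Leaving out 1 library at a time gave between 11 genes lower (without CML 2, or without WT 2) and 17 (without WT 3). It gave 0 higher in each case. Of all tested genes, 4.06% were lower without CML 2, 2.71% without WT 2 and 12.5% without WT 3.

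**Figure D1:**
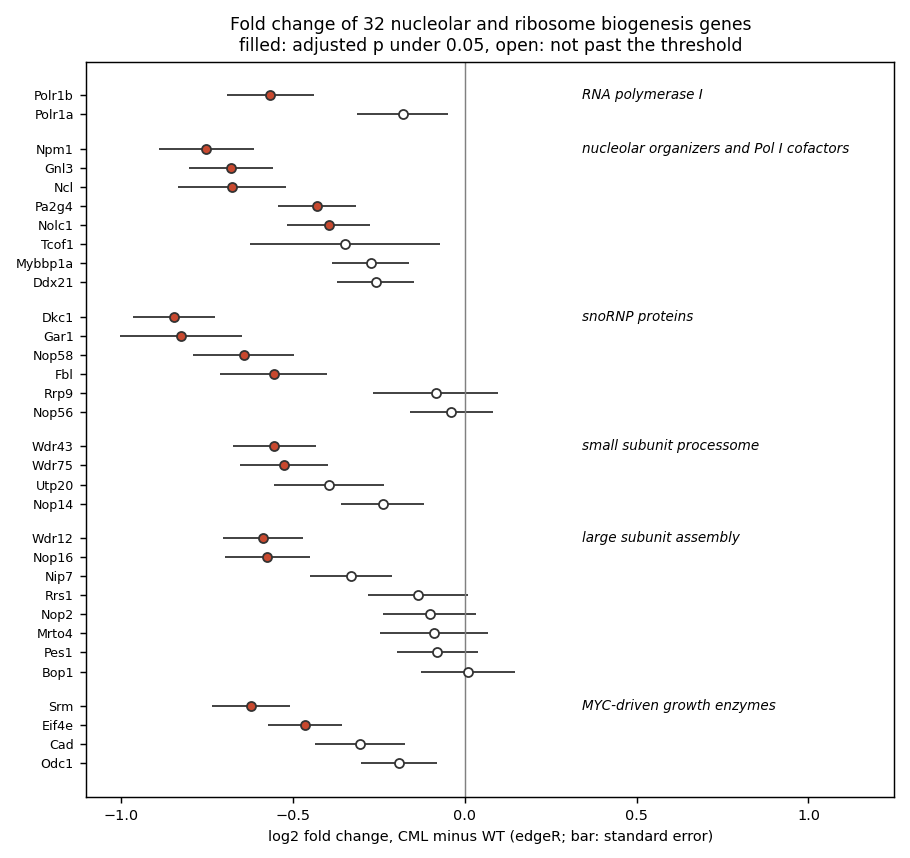
Log2FC of each of the 32 genes, CML minus WT, with its standard error, in the 6 role groups. Filled points passed an adjusted p of 0.05 and open points did not; 16 points are filled, and 31 of the 32 points lie left of 0, down to -0.85 for Dkc1.

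Library totals ran from 13323469 to 17926847 counts. WT 3 was the WT library nearest to CML. A chi-square of the counts, per degree of freedom, was 18.8, 31.2 and 34.6 between it and CML 1, 2 and 3. Between CML libraries it was 13.8 for 1 and 2, 12.5 for 2 and 3, and 18.6 for 1 and 3. Between WT libraries it was 5.73 for 1 and 2, 13.9 for 2 and 3, and 20.4 for 1 and 3. By this measure WT 3 was nearer to CML 1 than to WT 1. The counts included the ribosomal RNA model CT010467.1, with 1772 counts in CML 1 and 198233 in CML 3. The sorting genes Kit, Ly6a and Slamf1 were detected in all 6 libraries. Their summed levels were 295 to 594 CPM in CML and 348 to 387 CPM in WT. CPM are counts per 1000000 counts of a library, scaled by the TMM method. Slamf1, which encodes CD150, was itself lower (log2FC -0.80, adjusted p = 0.0470). Its groups overlapped, with 19.2 CPM in CML 2 and 18.7 CPM in WT 3. Each CML library lay above each WT library for Ly6a, which did not pass (adjusted p = 0.173). Kit overlapped (adjusted p = 0.842). Genes of mast cells and basophils were much higher in CML, with 9 of 16 tested markers higher and 0 lower and summed levels of 2552 to 8909 CPM against 203 to 420 CPM in WT. Monocyte and macrophage markers were higher in 5 of 9 tested cases (362 to 429 CPM against 238 to 295 CPM over 12 markers) and dendritic cell markers in 4 of 8 (48.5 to 169 CPM against 22.7 to 47.9 CPM over 12 markers). Erythroid markers (133 to 291 CPM against 368 to 415 CPM) and megakaryocyte markers (126 to 204 CPM against 282 to 308 CPM) had lower sums in CML, with 2 of 7 and 2 of 8 tested genes lower, and 1 erythroid gene higher. The erythroid genes lower in CML were the haemoglobin genes Hbb-bt (1582 counts over the CML libraries against 8091 over WT) and Hbb-bs (587 against 2543). Neutrophil markers (0 of 8 called) had sums of 208 to 314 CPM and 167 to 312 CPM, and lymphoid markers (1 of 3 higher) of 71.4 to 87.9 CPM and 62.3 to 83.1 CPM. Among defining markers, Mcpt1 and Mcpt2 of mast cells were at 0 counts in WT, C1qa, Hba-a1, Slc4a1, Camp and Ly6g were at 0 counts in WT with 1 to 25 counts over the CML libraries, and Cd3e and Cd3d had at most 3 counts over a group. Less RNA per cell and a different mix of cells cannot be told apart in bulk libraries, and the part of these markers in the results was not tested.

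MYC and MYCN bind with their partner MAX to the hexamer CACGTG, the canonical E-box, which MXD repressors also bind, and the stretches below show where it stands in the promoters of the 32 genes. Windows of 250 bases before to 50 bases after a RefSeq start site (GRCm38.p6) were found for 26 of the 32 genes; Npm1, Fbl, Tcof1, Bop1, Rrs1 and Srm had no entry. The hexamer, which reads the same on both strands, was present for 6 of these 26 genes (23.1%), against 11.7% of the 10233 tested genes with a window. It was present for 2 of 13 genes that fell (15.4%) and 4 of 13 that did not pass (30.8%), and for 15.4% of all tested genes that were lower and 10.8% of those that were higher. The matches, with 10 bases on each side where the window allowed and the hexamer in capitals, were in Wdr43 (starting at base 18 after the start site, chr17:71616222-71616247, plus strand), Eif4e (both before a start site inside the gene, chr3:138527030-138527055 and chr3:138527194-138527219, plus strand), Utp20 (base 38 after it, chr10:88826765-88826787, minus strand), Mybbp1a (base 41 after it, chr11:72441357-72441376, plus strand), Nop2 (base 60 before it, chr6:125131813-125131838, plus strand) and Pes1 (base 3 after it, chr11:3963967-3963992, plus strand). Of these genes Wdr43 and Eif4e fell.
Wdr43: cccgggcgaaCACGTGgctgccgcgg
Eif4e, base 228 before the start: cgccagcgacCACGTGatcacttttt
Eif4e, base 64 before the start: acacgtccgtCACGTGggcaggagcc
Utp20: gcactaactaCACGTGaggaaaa
Mybbp1a: cttctgagccCACGTGtttg
Nop2: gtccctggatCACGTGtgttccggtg
Pes1: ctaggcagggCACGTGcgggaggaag

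The upstream sequences of Dkc1 and Gar1 are shown because both genes encode proteins of the same particle and had the largest decreases. They are the 250 bases before the start site, chrX:75095604-75095853 on the plus strand and chr3:129831397-129831646 on the minus strand, and neither overlaps an annotated exon of GENCODE release M21. Neither holds CACGTG, so there are no capitals, and their G and C content was 52.0% for Dkc1 and 61.6% for Gar1.
Dkc1: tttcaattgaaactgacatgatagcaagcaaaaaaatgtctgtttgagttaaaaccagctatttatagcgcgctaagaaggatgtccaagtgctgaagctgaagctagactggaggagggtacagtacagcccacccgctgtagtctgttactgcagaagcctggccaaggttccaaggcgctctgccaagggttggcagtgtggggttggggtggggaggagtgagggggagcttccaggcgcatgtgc
Gar1: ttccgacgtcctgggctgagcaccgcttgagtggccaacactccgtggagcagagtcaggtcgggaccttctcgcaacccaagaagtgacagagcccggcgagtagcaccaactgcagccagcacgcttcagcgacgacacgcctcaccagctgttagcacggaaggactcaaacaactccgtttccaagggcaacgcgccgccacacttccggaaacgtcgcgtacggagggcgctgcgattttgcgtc

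RNA polymerase I was represented by its 2 largest subunits, of which 1 fell. Polr1b (chromosome 2, 129100995 to 129126594, GRCm38), the second largest subunit, was at 45.9, 45.2 and 57.2 CPM in CML 1, 2 and 3 against 67.4, 76.6 and 75.5 CPM in WT 1, 2 and 3. All CML values were below all WT values, and the log2FC, here and below given ± its standard error (SE), was -0.56 ± 0.13 (adjusted p = 0.00843); without WT 2 it just missed the threshold (adjusted p = 0.0503). Polr1a, the largest subunit, was at 26.1 ± 2.54 CPM in CML against 29.5 ± 2.78 CPM in WT (SD, n = 3), and its groups overlapped (log2FC -0.18 ± 0.13, adjusted p = 0.390). Among 18 further polymerase I subunits and factors, 2 were lower and 0 higher (11.1% lower), with a median log2FC of -0.16. These were Twistnb, a polymerase I stalk subunit, at -0.46 (adjusted p = 0.0158), and Polr2h, a subunit shared by the RNA polymerases, at -0.64 (adjusted p = 0.0186). Both calls were lost without CML 2 (0.0564 for Twistnb and 0.0881 for Polr2h), CML 3 (0.0821 and 0.0646) or WT 2 (0.113 and 0.0764). In the RNA polymerase III list, whose enzyme makes 5S rRNA and tRNA, 3 of 22 genes were lower and 0 higher. The lower shares, 11.1% for polymerase I and 13.6% for polymerase III, stood beside 7.20% of all tested genes. The subunit gene Polr3g had a log2FC of -0.59, the factor gene Gtf3c6 of -0.41 and the subunit gene Polr3b of -0.36 (adjusted p = 0.0165, 0.0224 and 0.0464). Polr3g missed the threshold without CML 3 (0.0523), WT 1 (0.0757) or WT 2 (0.0709). Gtf3c6 missed it without CML 2 (0.0862) or 3 (0.0968), or WT 1 (0.0634) or 2 (0.0954), and Polr3b without any library other than WT 3 (0.105 to 0.132). Polr3b also missed it with limma-voom (0.0524), with no low-count filter (0.0538), with a filter on a mean of 50 counts (0.0517) and with the replicate number as a block (0.0656).

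Proteins that organize the nucleolus fell in 5 of 8 cases. Npm1 encodes nucleophosmin, an abundant chaperone of the granular nucleolus that is often mutated in acute myeloid leukaemia (chromosome 11, 33152287 to 33163206). It was at 625, 499 and 516 CPM in CML 1, 2 and 3 against 948, 1014 and 798.5 CPM in WT 1, 2 and 3, with no overlap. Its log2FC was -0.75 ± 0.14 (adjusted p = 0.00248). Per kilobase of exon Npm1 was the most abundant of the 32 genes in WT, at 345 CPM per kb, followed by Pa2g4 at 60.3 and Srm at 58.0 CPM per kb. Ncl (chromosome 1, 86344719 to 86359400), which encodes nucleolin, an RNA-binding protein of the same compartment, was at 374, 350 and 367 CPM in CML against 710, 597 and 437 CPM in WT 1, 2 and 3. The CML libraries lay close together, whereas WT 3 lay well below the other two WT libraries, and the log2FC was -0.68 ± 0.16 (adjusted p = 0.0105). Gnl3 (chromosome 14, 31012433 to 31019152), which encodes nucleostemin, a GTP-binding protein known from stem cells, was at 123, 117 and 143 CPM in CML against 221, 208 and 185 CPM in WT. Its groups were apart as well, with a log2FC of -0.68 ± 0.12 (adjusted p = 0.00216).

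Pa2g4 and Nolc1 fell by less. Pa2g4 (chromosome 10, 128557766 to 128565987), which encodes a growth regulator that binds pre-ribosomes, was at 129, 114 and 134 CPM in CML against 182, 163 and 163 CPM in WT (log2FC -0.43 ± 0.11, adjusted p = 0.0208). Nolc1 (chromosome 19, 46075863 to 46085530), a chaperone of snoRNPs, was at 23.4, 24.2 and 23.1 CPM in CML against 30.8, 32.6 and 29.6 CPM in WT (log2FC -0.40 ± 0.12, adjusted p = 0.0387). The values did not overlap for either gene, but the calls were the least stable of this group. Pa2g4 missed the threshold without CML 2 (adjusted p = 0.114), WT 1 (0.0730) or WT 2 (0.0624), and with scaling by library totals (0.0554). Nolc1 missed it without CML 1 (0.0672), 2 (0.0983) or 3 (0.134), without WT 1 (0.0885) or 2 (0.184), and with library totals (0.142). The other 3 members did not pass: the polymerase I cofactor gene Mybbp1a and the RNA helicase gene Ddx21 had log2FC values of -0.27 and -0.26 (adjusted p = 0.114 and 0.131), each without overlap of the groups. Tcof1, which encodes treacle, a cofactor of rDNA transcription, was the scarcest of the 32 genes per kilobase and overlapped (-0.35 ± 0.28, adjusted p = 0.428).

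**Figure D2:**
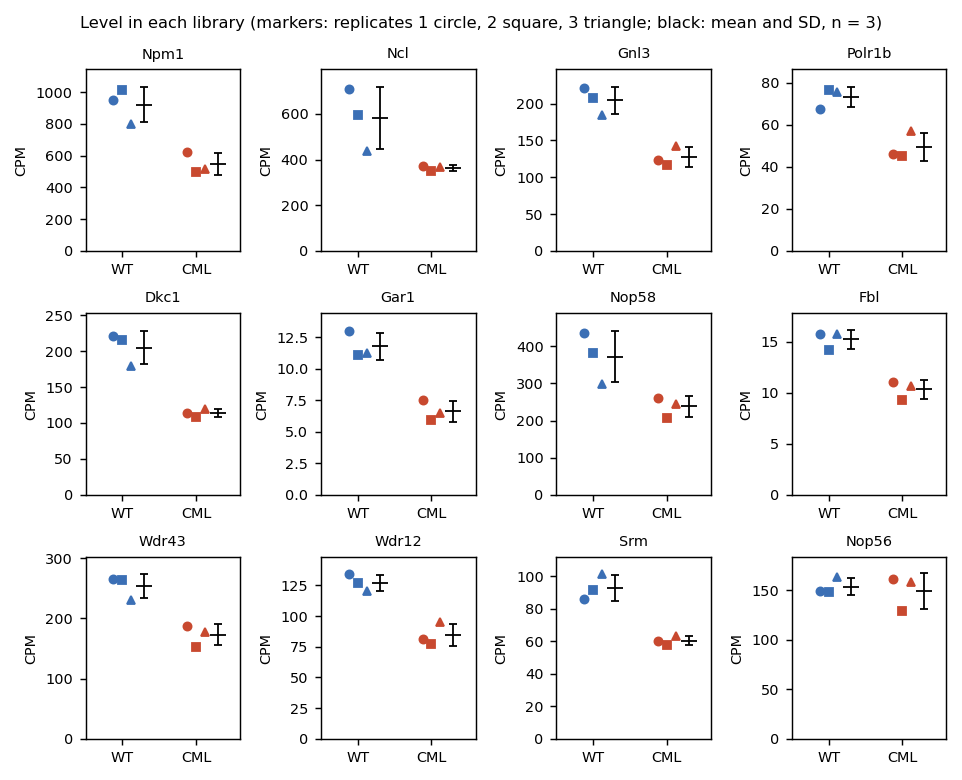
Level in CPM of 12 of the genes in each library, on axes that start at 0; blue markers are WT and red markers CML, with the shape giving the replicate, and black bars show the mean and SD of 3 libraries. The groups are apart for 11 of the genes and overlap for Nop56.

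Of the 6 snoRNP protein genes 4 fell. Dkc1 (chromosome X, 75095854 to 75109777) encodes dyskerin, the pseudouridine synthase of H/ACA particles, which also stabilizes telomerase RNA and is mutated in dyskeratosis congenita, a bone marrow failure syndrome. It was at 114, 109 and 120 CPM in CML 1, 2 and 3 against 221, 216 and 179 CPM in WT 1, 2 and 3. With no overlap and a log2FC of -0.85 ± 0.12 (adjusted p = 3.91e-04), it had the lowest adjusted p of the 32 genes. Its partner Gar1 (chromosome 3, 129824912 to 129831396) was at 7.53, 5.91 and 6.45 CPM in CML against 12.96, 11.05 and 11.3 CPM in WT. The log2FC of Gar1 was -0.82 ± 0.18 (adjusted p = 0.00671), and its WT values lay well above the highest CML value. The median log2FC was -0.38 over 11 further genes for snoRNP proteins and their assembly factors. Of these genes 3 were lower (27.3%, beside 7.20% of all tested genes) and 0 higher. They were Nop10 (log2FC -0.58, adjusted p = 0.0120), Naf1 (-0.73, adjusted p = 0.00789), which loads H/ACA particles, and Snu13 (-0.50, adjusted p = 0.00823) of box C/D particles. Nop10 and Naf1 missed the threshold without WT 2 (0.0750 and 0.0614), and Snu13 without CML 3 (0.0534).

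In the box C/D particles, which methylate ribose, 2 of the 3 core protein genes among the 32 fell. Nop58 (chromosome 1, 59684971 to 59719044) was at 261, 208 and 245 CPM in CML against 435, 383 and 298 CPM in WT, apart in every pair of libraries (log2FC -0.64 ± 0.15, adjusted p = 0.00925). Nop56 (chromosome 2, 130274430 to 130279313), its paralogue and partner in the same particle, was at 162, 129 and 158 CPM in CML against 149.8, 148 and 164 CPM in WT. These values overlapped, with a log2FC of -0.04 ± 0.12 (adjusted p = 0.863) that turned to 0.058 without CML 2; the difference between the paralogues' changes was not tested. Fbl (chromosome 7, 28169710 to 28179269), which encodes fibrillarin, the methyltransferase of the particle, was at 11.1, 9.34 and 10.6 CPM in CML against 15.8, 14.2 and 15.8 CPM in WT. It fell with a log2FC of -0.56 ± 0.16 (adjusted p = 0.0265). The call for Fbl did not hold without CML 2 (adjusted p = 0.113), CML 3 (0.0768), WT 1 (0.0778) or WT 2 (0.0692), or with library totals (0.0765). Rrp9, a U3 snoRNP protein, was at 13.1 ± 2.23 CPM in CML against 13.9 ± 2.31 CPM in WT and did not pass (adjusted p = 0.793).

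The small subunit processome, the large particle that makes the first cuts in the precursor, fell in 2 of 4 members. Wdr43 (chromosome 17, 71615895 to 71659031) and Wdr75 (chromosome 1, 45795166 to 45823619) belong to the subcomplex that also acts in polymerase I transcription. Wdr43 was at 187, 153 and 177 CPM in CML against 266, 263 and 230 CPM in WT (log2FC -0.55 ± 0.12, adjusted p = 0.00673). Wdr75 was at 124, 101 and 118 CPM in CML against 189, 156 and 149.8 CPM in WT (log2FC -0.53 ± 0.13, adjusted p = 0.0131). Neither gene overlapped between the groups, and Wdr75 missed the threshold without CML 2 (adjusted p = 0.0701) or WT 1 (0.0532). Utp20 had a log2FC of -0.39 with 93.8 CPM in WT 1 and 60.1 CPM in WT 3, which lay within the CML range of 50.9 to 63.0 CPM (adjusted p = 0.111, and 0.0295 without WT 3). Nop14 had -0.24 (adjusted p = 0.197), without overlap. In the list of 50 further 40S genes, 8 were lower and 0 higher (16% lower) and 41 values were below 0, with a median of -0.18. Its 3 lowest adjusted p belonged to the processome gene Wdr36 (log2FC -0.51, adjusted p = 0.00817), the kinase gene Riok2 of late 40S maturation (-0.49, adjusted p = 0.0164) and Tsr1 (-0.42, adjusted p = 0.0245), a 40S maturation factor. Without CML 2 all 3 missed the threshold (0.0571, 0.0575 and 0.126). Riok2 also missed it without CML 3 (0.0691), WT 1 (0.0671) or WT 2 (0.0681), and Tsr1 without WT 1 (0.0769) or WT 2 (0.0818).

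Large subunit assembly had the smallest share of genes that fell, 2 of 8, of the role groups. The PeBoW complex, which is needed for maturation of the large subunit RNAs, consists of Pes1, Bop1 and Wdr12. Wdr12 (chromosome 1, 60069785 to 60098645) was at 81.5, 77.5 and 95.1 CPM in CML against 134, 127 and 121 CPM in WT, without overlap (log2FC -0.59 ± 0.12, adjusted p = 0.00410). Pes1, at 65.6 ± 3.53 CPM in CML against 69.3 ± 7.05 CPM in WT, and Bop1, at 32.5 ± 1.69 and 32.3 ± 5.03 CPM, overlapped between the groups (log2FC values -0.08 and 0.01, adjusted p = 0.693 and 0.972). Nop16 (chromosome 13, 54584185 to 54590090), a nucleolar protein gene and MYC target, was at 22.5, 20.9 and 19.5 CPM in CML against 30.9, 30.9 and 31.8 CPM in WT, and its WT libraries were nearly equal. It fell with a log2FC of -0.57 ± 0.12 (adjusted p = 0.00690). Nip7, a factor of large subunit RNA processing, did not pass at -0.33 (adjusted p = 0.0730), although its groups were apart. The rRNA methyltransferase gene Nop2 and the assembly factor genes Mrto4 and Rrs1 overlapped, with log2FC values between -0.14 and -0.09 and adjusted p from 0.568 to 0.747. Among 55 further 60S genes 11 were lower and 0 higher (20% lower), 44 values were below 0 and the median was -0.24. The 3 with the lowest adjusted p, the rRNA processing factor genes Nifk and Brix1 and Sdad1, a gene of 60S transport, had log2FC values of -0.52, -0.66 and -0.49 (adjusted p = 0.00572, 0.00652 and 0.00687).

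Of the growth enzymes 2 of 4 fell. Srm (chromosome 4, 148591503 to 148594993), spermidine synthase, was at 59.9, 57.7 and 63.2 CPM in CML against 85.7, 91.4 and 101 CPM in WT, with no overlap (log2FC -0.62 ± 0.11, adjusted p = 0.00240). Eif4e (chromosome 3, 138526179 to 138559696), the cap-binding translation factor, was at 212, 199 and 196 CPM in CML against 278, 294 and 265 CPM in WT (log2FC -0.46 ± 0.11, adjusted p = 0.0104). Its groups were apart too, but the call was lost without CML 2 (adjusted p = 0.0530), CML 3 (0.0639) or WT 2 (0.0688). Odc1, which encodes ornithine decarboxylase, the first enzyme of polyamine synthesis and a textbook MYC target, was at 125 ± 3.32 CPM in CML against 142 ± 11.6 CPM in WT and did not pass (log2FC -0.19 ± 0.11, adjusted p = 0.256). Cad, which starts pyrimidine synthesis, had -0.30 ± 0.13 (adjusted p = 0.131). Both Odc1 and Cad had all CML values below all WT values.

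The polyamine and pyrimidine list moved in both directions, with 3 of 14 genes lower and 2 higher. These were 21.4% lower and 14.3% higher, beside 7.20% and 10.2% of all tested genes. Spermine synthase, Sms, was at 58.6, 56.3 and 59.1 CPM in CML against 95.5, 95.7 and 74.4 CPM in WT (log2FC -0.61 ± 0.12, adjusted p = 0.00494). The decarboxylase genes Amd1 and Amd2, which supply the aminopropyl donor, had log2FC values of -0.61 and -0.63 (adjusted p = 0.00609 and 0.0157), and Amd2 missed the threshold without WT 1 (0.0538) or WT 2 (0.0743). Amd1 and Amd2 are near-identical copies whose shared reads may have been divided between them. The higher genes, named after their values were seen, were Oaz2 and Sat1, an antizyme that targets ornithine decarboxylase for degradation and the acetyltransferase that starts polyamine breakdown. Oaz2 was at 44.7, 45.4 and 42.4 CPM in CML against 27.5, 31.8 and 35.3 CPM in WT (log2FC 0.49, adjusted p = 0.0182). Sat1 was at 45.1, 54.9 and 53.1 CPM in CML against 41.0, 36.1 and 32.1 CPM in WT (log2FC 0.49, adjusted p = 0.0233). All CML libraries lay above all WT libraries for both, but both calls were lost without CML 2 (0.0652 for Oaz2 and 0.0926 for Sat1) or WT 2 (0.0846 and 0.102), Oaz2 also without WT 1 (0.0822) and Sat1 without CML 3 (0.0925). None of 13 further cap-binding and eIF4F genes passed in edgeR; Eif4e3 had the lowest p (log2FC 0.32, adjusted p = 0.0814), and it passed with library totals (0.0370).

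Of the 9 pathway lists outside the 32 genes, 38 of 211 tested genes were lower (18%) and 2 were higher, with a median log2FC of -0.18 and 163 values below 0. Without 1 library the count of lower genes ran from 11 (without WT 2) to 56 (without WT 3), while 2.71% and 12.5% of all tested genes were lower. It was 15 without CML 2, 18 without CML 3 and 21 without WT 1, and the 2 higher genes became 0 without CML 2 or WT 2, 1 without CML 3 or WT 1, and 4 without WT 3. The RNA exosome, which trims the precursor, had 4 of 13 tested genes lower (30.8%, beside 7.20% of all tested genes). They were Dis3, its nuclease (log2FC -0.54, adjusted p = 0.00845), Mtrex, its helicase (-0.49, adjusted p = 0.0275), and the core genes Exosc1 (-0.44, adjusted p = 0.0280) and Exosc9 (-0.45, adjusted p = 0.0493), the last named after its values were seen. Mtrex, Exosc1 and Exosc9 missed the threshold without CML 2 (0.0847, 0.127 and 0.107), CML 3 (0.0994, 0.0549 and 0.180), WT 1 (0.0992, 0.0727 and 0.204) or WT 2 (0.116, 0.115 and 0.101). Exosc9 also missed it with limma-voom (0.0615) and with a filter on a mean of 50 counts (0.0556).

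**Figure D3:**
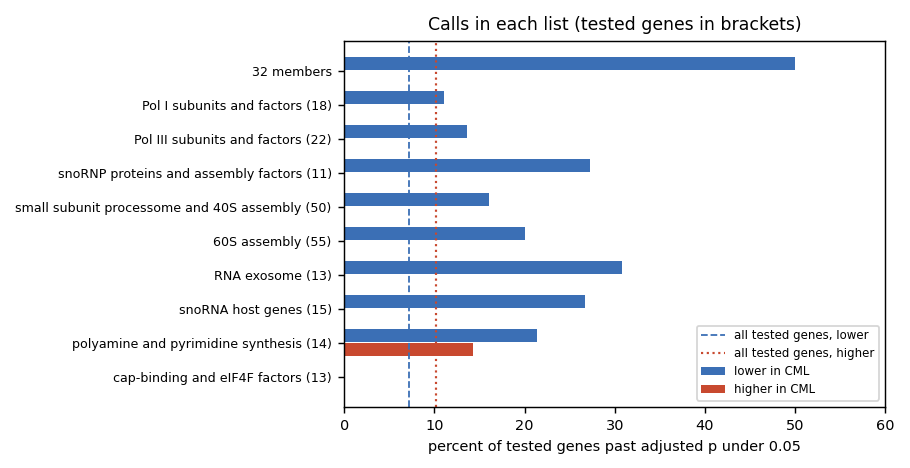
Percent of the tested genes of each list that were lower (blue) or higher (red) in CML at an adjusted p under 0.05; dashed and dotted lines mark 7.20% and 10.2%, the shares over all tested genes. The 32 genes stand at 50% lower and 0% higher, and the 9 further lists between 0% and 30.8% lower.

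Many small nucleolar RNAs are cut from the introns of host genes. Of the 32 genes, 7 contain an annotated snoRNA gene on the same strand (GENCODE release M21): Ncl, Gnl3, Nop56, Nop58, Dkc1, Wdr43 and Odc1. Of these, 5 fell and 2 did not pass (Nop56 and Odc1), and their median log2FC was -0.64. The 25 genes without one had 11 that fell and a median of -0.35. Over all tested genes with an annotation match, 45 of 236 with a snoRNA gene inside were lower and 12 higher (19.1% and 5.08%), against 1100 and 1617 of 15603 without one (7.05% and 10.4%). With the 32 genes left out, 40 of 229 host genes were lower (17.5%). Among 15 non-coding and other snoRNA host genes of the pathway list, 4 were lower (26.7%) and 0 higher. Gas5, a growth-arrest transcript whose spliced RNA carries no long reading frame, was at 217, 194 and 229.6 CPM in CML against 378, 393 and 300.4 CPM in WT (log2FC -0.74 ± 0.13, adjusted p = 0.00189). Snhg4 had -0.61 (adjusted p = 0.00379) and Snhg15 -0.59 (adjusted p = 0.0250), and Snhg15 missed the threshold without CML 2 (0.09995), CML 3 (0.0786), WT 2 (0.0558) or WT 3 (0.0508). The fourth, Snhg3, named after its values were seen, had -0.72 (adjusted p = 0.0374) and missed it without CML 2 (0.111), CML 3 (0.116), WT 1 (0.164) or WT 2 (0.0917).

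Each library was then set against the mean of the WT libraries. The median log2 ratio over the 32 genes was -0.39, -0.49 and -0.34 in CML 1, 2 and 3 and 0.03, -0.02 and -0.01 in WT 1, 2 and 3. All 3 CML libraries had lower medians than all WT libraries, with 30, 32 and 27 of the 32 genes below the WT mean in CML 1, 2 and 3. The mast cell and basophil markers summed to 2552 CPM in CML 1, 8909 CPM in CML 2 and 5600 CPM in CML 3. Their relation to the 32 genes was not tested. Without CML 2 the median fold change of the 32 genes was -0.39, and without WT 3 it was -0.44. Summed over the 32 genes, the level was 3287, 2921 and 3236 CPM in CML 1, 2 and 3 and 4839, 4653 and 4133 CPM in WT 1, 2 and 3. The groups were apart, and WT 3 was the lowest of the WT libraries by this sum.

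**Figure D4:**
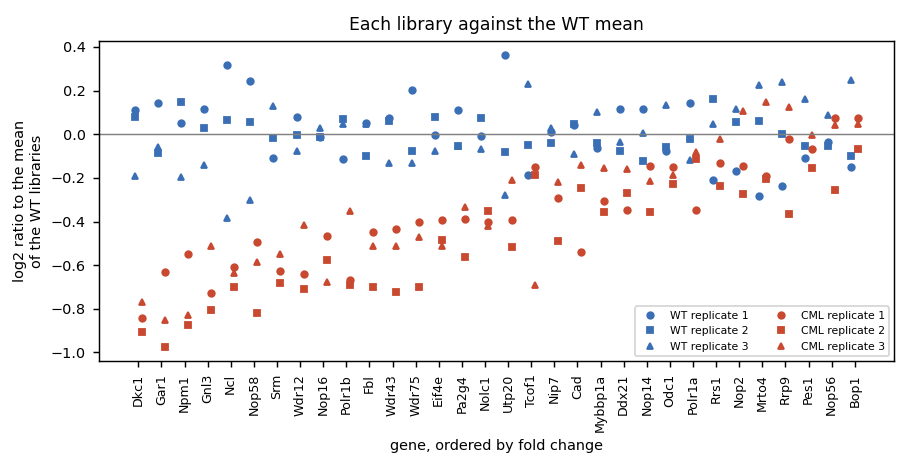
Log2 ratio of each library to the mean of the 3 WT libraries for each of the 32 genes, ordered by fold change, with WT in blue and CML in red. The red points of the genes on the left lie below all blue points, whereas for Bop1, Nop56 and Pes1 on the right the colours mix; WT 3 lies lowest of the WT libraries for Ncl, Nop58 and Dkc1.

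The genes that fell had a higher median level, in overlapping ranges: the WT median was 167 CPM, from 11.8 to 920 CPM, against 44.0 CPM, from 3.03 to 170 CPM, for the 16 that did not pass. Standard errors were similar, from 0.11 to 0.18 among the genes that fell and from 0.11 to 0.28 among the others. Of the 16 that did not pass, 5 had an unadjusted p under 0.05 and 6 had groups without overlap. Counts per library ran from 29 (Tcof1) to 16067 (Npm1). For 6 of the 32 genes every deposited value was a whole number, within a tolerance of 1e-06, and for 13 none was, Npm1, Fbl, Ncl, Nop58 and Nop56 among them. Their values are uncertain to the extent that reads shared with near-identical copies or overlapping genes were divided.

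Of the MYC family genes that were tested, Mycn and Myc, the first passed. Mycn (chromosome 12, 12936093 to 12941914) was at 10.9, 13.2 and 14.6 CPM in CML 1, 2 and 3 against 84.5, 102 and 129 CPM in WT 1, 2 and 3, with a log2FC of -3.03 ± 0.18 (adjusted p = 2.95e-07). Myc was at 24.8, 35.2 and 42.6 CPM in CML against 30.6, 39.2 and 37.6 CPM in WT, overlapping, with -0.07 ± 0.18 (adjusted p = 0.843), and its sign turned to 0.12 without CML 1 and to 0.03 with library totals. Mycl had 2 to 11 counts per library and was not tested. The MXD family repressors, which compete with MYC for MAX, rose in 2 of 4 cases, Mxd4 and Mxd1, while Mxd3 and Mxi1 did not pass (adjusted p = 0.234 and 0.985). Mxd4 was at 64.4, 65.4 and 65.7 CPM in CML against 26.6, 26.3 and 33.5 CPM in WT (log2FC 1.18 ± 0.13, adjusted p = 4.92e-05). Mxd1 was at 27.1, 44.0 and 34.1 CPM in CML against 16.9, 14.5 and 16.7 CPM in WT (log2FC 1.13 ± 0.17, adjusted p = 7.04e-04). For both, the lowest CML library lay above the highest WT library. The relation of these genes to the 32 was not tested.

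**Figure D5:**
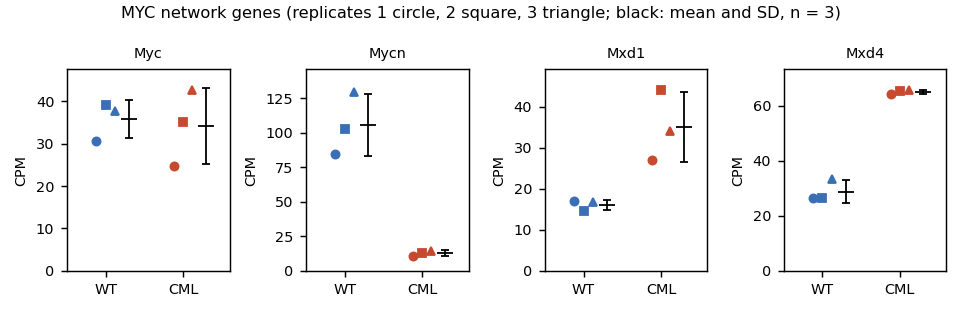
Level in CPM of Myc, Mycn, Mxd1 and Mxd4 in each library, with axes from 0, WT in blue, CML in red, and black bars for the mean and SD of 3 libraries. Myc overlaps between the groups, Mycn is lower in all CML libraries and Mxd1 and Mxd4 are higher.

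Genes of the cell cycle were set beside these results because dividing cells make more ribosomes. In the list of 28 G1/S genes, 2 were higher (Tyms, a thymidylate synthesis gene, at 0.50, and Ccne1, which encodes cyclin E1, at 0.82) and 1 was lower (Rfc4, a clamp loader subunit, at -0.47; adjusted p = 0.00499, 0.0223 and 0.0374). These were 7.14% higher and 3.57% lower, beside 10.2% and 7.20% of all tested genes. The summed level of the G1/S list was 3895 to 4132 CPM in CML against 3882 to 3967 CPM in WT. In the list of 21 G2/M genes, 3 were lower (14.3%, beside 7.20% of all tested genes) and 0 higher. Of its 21 values 20 were below 0, against only 50.4% of those of all tested genes. The summed level of the G2/M list was 2828 to 3241 CPM in CML against 3340 to 4215 CPM in WT. Ccnb1, Ube2c and Cdk1 had log2FC values of -0.50, -0.52 and -0.45 (adjusted p = 0.00839, 0.0121 and 0.0183). Each of these missed the threshold without CML 2 (0.0616, 0.0517 and 0.106), and Cdk1 also without WT 2 (0.0579). Ccne1 and Rfc4 missed it without CML 2 (0.0590 and 0.137), CML 3 (0.123 and 0.137), WT 1 (0.0648 and 0.133) or WT 2 (0.105 and 0.114). The part of cell division in the changes of the 32 genes was not tested. The ribosomal RNA model CT010467.1 held 1772, 516 and 198233 counts in CML 1, 2 and 3 and 49 to 128 counts in the WT libraries. Each CML library lay above each WT library, as for 18.5% of all tested genes. The size of its difference rested mainly on CML 3, and it did not pass (adjusted p = 0.135). With the ribosomal RNA models removed before scaling, 16 of the 32 genes were lower and 0 higher, beside 7.21% of all tested genes lower.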

How the data were processed

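Bulk RNA was sequenced from 3 CML and 3 WT libraries, made with a Nextera XT kit according to the labels' protocols. The authors deposited estimated counts per gene, unscaled and not whole (tolerance 1e-06) for 33.9% to 36.0% of the entries of a library. The submitters' processing notes list STAR 2.7.3a, Partek 8.0 and mm10 as build, without roles. The annotation, the strand setting and how shared reads were divided are not stated there. Groups and replicate numbers came from the sample titles.

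Counts were rounded, filtered with filterByExpr (minimum count 10) and tested over 16221 genes with edgeR 4.0.16 under R 4.3.3 (quasi-likelihood F test, TMM scaling, robust, two-sided, group as the only term, Benjamini-Hochberg adjusted p under 0.05 over all tested genes). Standard errors (SE) came from the fold change and F. CPM is counts per 1000000 with TMM scaling. The steps were tested on simulated data. Reads carried no molecular identifiers. Coordinates and exon lengths came from GENCODE M21 (GRCm38) by symbol, which matched 28951 of 29872 symbols; promoters came from RefSeq. The alternatives were other scalings, DESeq2 1.42.0, limma-voom (limma 3.58.1), other filters, removal of ribosomal RNA models, a replicate block and leaving out each library.

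The members and lists were chosen with earlier results of these data known. All members were described; values in every library were given for members past the threshold, and up to 3 called genes with the lowest adjusted p, or else the gene with the lowest p, were named from each further list.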

Additional observations from a re-analysis of the deposited data

How the results depend on the processing

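The 32 genes numbered 0 higher in CML under each of the 15 alternatives and between 11 and 17 lower, and 10 of the 16 that fell passed under every alternative run. Their median log2 fold change was -0.29 with library totals, where the median over all tested genes was 0.0945, and from -0.44 to -0.39 with 1 library left out. With library totals 13 of the 32 passed, 732 genes of the whole table were lower and 21 pathway genes outside the 32 were lower, and the higher share of all calls was 73.8% against 58.6%. With 1 library left out, all tested genes numbered 1011 to 2021 higher and 455 to 2101 lower (higher share 49.0% without WT replicate 3), the members 0 to 0 higher and 11 to 17 lower, and the pathway genes 0 to 4 higher and 11 to 56 lower.

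The labels do not say whether CML and WT libraries with the same replicate number were paired. Deviations from the group means correlated across genes at -0.02, -0.05 and 0.01 for the pairs with numbers 1, 2 and 3. With 3 libraries per group, these values cannot show whether such libraries shared a litter, culture or day. With the replicate block, 15 of the 32 genes were lower, beside 7.4% of all tested genes. Nolc1 missed the threshold (adjusted p = 0.0531), as did Polr3b of the further lists (0.0656). The median of the 32 genes was -0.38.

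Among the genes named, signs turned for 6, all of which missed the threshold. With library totals these were Nop56 (0.058), Rrp9 (0.0093), Pes1 (0.016), Mrto4 (0.0049) and Myc (0.029). Without CML replicate 2, Nop56 was at 0.058 and Rrp9 at 0.041. Without WT replicate 3, Nop56 was at 0.0044, Rrp9 at 0.041, Pes1 at 0.0040 and Mrto4 at 0.026. Bop1 turned to -0.020 with no low-count filter, -0.023 without CML replicate 1, -0.0048 without CML replicate 3, -0.071 without WT replicate 1 and -0.047 without WT replicate 2, and Myc to 0.12 without CML replicate 1. With 1 library left out in turn, the values ran from -0.10 to 0.058 for Nop56, -0.20 to 0.041 for Rrp9, -0.071 to 0.14 for Bop1, -0.14 to 0.0040 for Pes1, -0.22 to 0.026 for Mrto4 and -0.26 to 0.12 for Myc. The cause was not tested. Utp20 passed with no low-count filter (adjusted p = 0.0462) and without WT replicate 3. With library totals Polr2h, Gtf3c6, Polr3b, Tsr1, Exosc1, Exosc9, Snhg15, Snhg3, Rfc4 and Cdk1 also missed the threshold (adjusted p = 0.0502 to 0.175). At 29 to 57 counts per library, Tcof1 had the largest standard error of the 32 genes, 0.28.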
